A study of Mus musculus with 24 samples.

Results

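The 37 genes described here encode autophagy receptors and machinery, their transcriptional and nutrient-sensing regulators, and the membrane proteins, enzymes and proton pump of the lysosome. They were taken by gene symbol from a table of 56748 genes, and all 37 were found. They comprise 15 autophagy genes (3 receptors, 5 members of the ATG8 family and 7 further machinery genes), 7 regulators and 15 lysosomal genes (3 membrane proteins and channels, 9 hydrolases and 3 subunits of the vacuolar ATPase). A gene was tested where at least 4 libraries had 1 FPKM or more, FPKM being a read density corrected for transcript length and library size. The library size used was not exactly the number of reads assigned to genes, as given below. Of all genes 12904 passed that filter, and of the 37 members 36 passed. The exception was Rragd, a Rag GTPase of the lysosomal surface, whose group means lay between 0.118 and 0.252 FPKM, and no test is given for it.

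RNA was sequenced from C2C12, a mouse myoblast cell line of unlimited growth, infected with a lentivirus that expresses, under doxycycline, uncoupling protein 1 (UCP1), a mitochondrial carrier that lets protons flow back into the matrix without making ATP. At 24 h after seeding the cells received doxycycline or water, the treatments began 24 h after that, and RNA was taken after 16 h of treatment. There were 6 groups of 4 libraries. Dox_OOA cells received doxycycline with 1 uM oligomycin, an inhibitor of the mitochondrial ATP synthase, and 300 uM oleic acid, and OOA cells received the same pair of agents with water. Dox_OA and OA cells received 300 uM oleic acid with doxycycline or with water. Dox_BSA and BSA cells received 51 uM bovine serum albumin (BSA), the carrier of the fatty acid, with doxycycline or with water. All 6 groups carried the vector and grew in DMEM with fetal bovine serum and pyruvate. Since doxycycline was never given to cells without the vector, what it did through UCP1 and what it did otherwise cannot be told apart, and oligomycin was given only together with oleic acid. Whether the 4 libraries of each group are separate cultures is not stated in the labels, so the p-values measure the spread between these libraries, which may be technical. How much albumin went with the oleic acid is not stated either.

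In macroautophagy a membrane sheet grows around cargo, driven by the ULK1 kinase, a phosphoinositide kinase complex that contains BECN1, and the conjugation of ATG8 proteins to membrane lipid. Receptors such as p62, encoded by Sqstm1, tie cargo to the ATG8 proteins, and the closed autophagosome fuses with a lysosome, whose acid hydrolases break the content down. TFEB, TFE3 and MITF are related transcription factors that, when not held in the cytoplasm by signalling from the lysosomal surface, bind E-box-like DNA elements near many autophagy and lysosomal genes.

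The libraries held 20370651 to 29410667 reads assigned to genes, recovered as whole reads from the FPKM values, and a member had between 6 and 28052 reads in a library. The library size behind the FPKM values was 0.965 to 0.983 times these reads in OOA and 0.996 to 1.027 times in the other groups. FPKM thus came out slightly higher in OOA libraries than a scale on assigned reads alone would give. Ucp1, the induced gene, ran at 207 to 224 FPKM in Dox_OOA, 309 to 339 FPKM in Dox_OA and 332 to 341 FPKM in Dox_BSA, and at 3.88 to 7.67 FPKM in the libraries with water. Its level was thus lower in Dox_OOA than in the other doxycycline groups, without overlap, and whether this had a part in the doxycycline comparisons with oligomycin was not tested. The summed level of 6 myoblast genes was 198 to 217 FPKM in Dox_OOA and 156 to 166 FPKM in OOA, against 177 to 196 FPKM in Dox_OA and 164 to 176 FPKM in OA, and 204 to 222 FPKM in Dox_BSA and 198 to 225 FPKM in BSA. Single myoblast genes went opposite ways in OOA against OA, with log2 changes of 1.77 for Myf5, -0.58 for Myod1 and -0.77 for Cdh15. The summed level of 9 macrophage and other leukocyte genes, cells that are rich in lysosomes, was 0.892 to 2.31 FPKM, with Adgre1, Itgam, Laptm5 and Tyrobp at 0 in every library. Most of this sum was Lyz2, with group means of 1.28 to 1.60 FPKM. Aif1 was at 0.178 to 0.603 FPKM in Dox_OOA libraries and at most 0.152 FPKM elsewhere. With oligomycin other features of the cells moved at the same time, and some proliferation, myotube and myoblast genes also moved without it. In Dox_OA against OA the log2 change was -0.46 for Plk1, -0.34 for Ccna2 and -0.33 for Ccnb1, all called. Mki67 and Top2a did not pass there. In OA against BSA it was -0.54 for Myod1, -0.49 for Cdh15 and -0.44 for Myf5, all called. Des, Itga7 and Myog did not pass in that comparison. The summed level of 5 proliferation genes was 132.5 to 149.9 FPKM in Dox_OOA and 77.2 to 82.2 FPKM in OOA, against 246.5 to 259.3 FPKM in Dox_OA and 291 to 317 FPKM in OA. In Dox_BSA it was 261.4 to 268.5 FPKM and in BSA 280.8 to 308.6 FPKM. The summed level of 5 myotube genes was 41.1 to 57.9 FPKM in Dox_OOA and 24.7 to 32.5 FPKM in OOA, against 47.8 to 60.2 FPKM in Dox_OA and 59.4 to 92.1 FPKM in OA. In Dox_BSA it was 68.0 to 75.7 FPKM and in BSA 102.8 to 128.4 FPKM. Most of this sum was Acta1. Myh3 averaged 0.152 FPKM in OOA and 3.05 FPKM in OA. Its log2 change was -0.97 in Dox_BSA against BSA and -0.55 in OA against BSA, both called. Mymk did not pass in Dox_BSA against BSA, at -0.32. Whether proliferation, differentiation or myoblast state had a part in the changes described next was not tested, and in bulk RNA fewer cells of a kind and less RNA per cell cannot be told apart.

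Most members had their highest mean level in a group that received oligomycin. Dox_OOA held the highest group mean of 19 members and OOA that of 14, while OA held it for 3 and Dox_OA for 1. The lowest mean lay in Dox_OA for 14 members, in BSA for 10, in OA for 6, in OOA for 5 and in Dox_OOA and Dox_BSA for 1 each. The same counts over all tested genes were not made, so whether this order is particular to the members cannot be told. Levels differed widely between genes on this length-corrected scale. Lamp1, the most abundant membrane glycoprotein here, averaged 243 ± 9.22 FPKM (SD, n = 4) in OA libraries, and the factor gene Mitf averaged 1.02 ± 0.0836 FPKM in the same libraries.

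**Figure D1:**
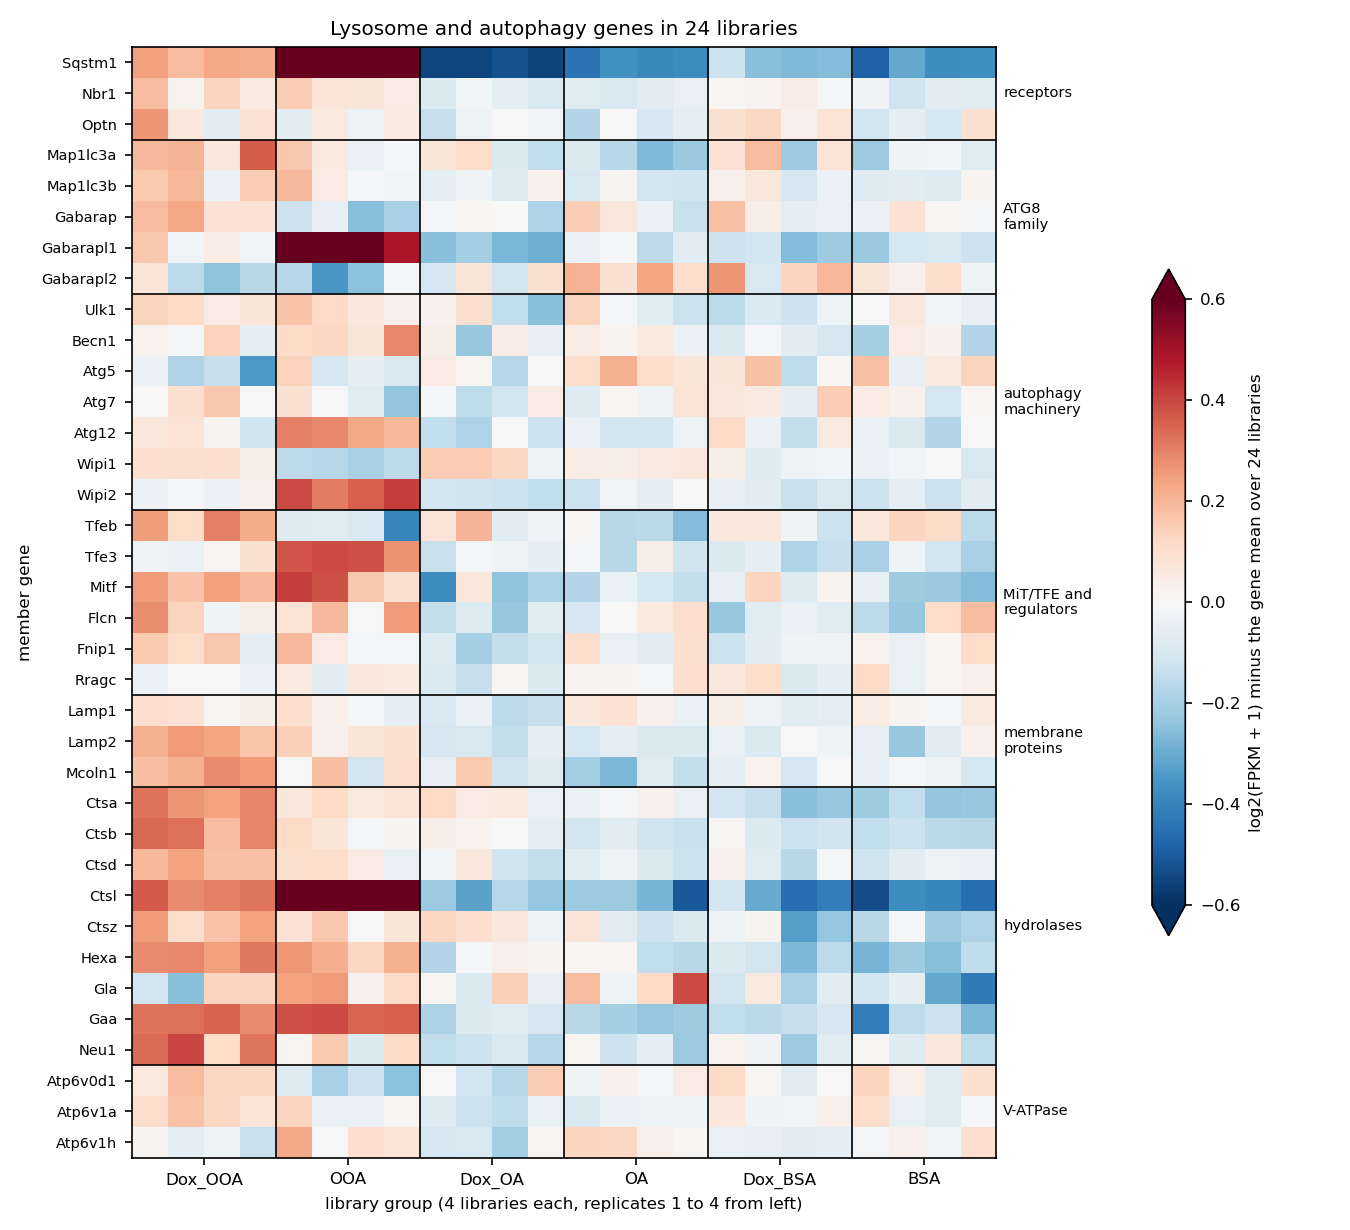
Levels of the 36 tested members (rows, by functional list) in the 24 libraries (columns, by group), as log2(FPKM + 1) minus the gene's mean over all libraries; colours reach their limit at 0.6 in either direction. Sqstm1, Ctsl and Gabarapl1 stand out in the 4 OOA libraries, and most lysosomal rows are highest in the Dox_OOA and OOA columns.

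The first question was what oligomycin did to these genes in cells without induced UCP1, from OOA against OA. Among the 36 tested members 17 rose and 4 fell, where a gene is said to have risen or fallen at an adjusted p under 0.05 in limma over all 12904 genes. Of all tested genes 28.5% rose and 28.4% fell in this comparison, 56.9% in either direction. The median log2 change was 0.13 over the members and 0.01 over all genes. All log2 changes are of FPKM + 1, a scale on which changes of low genes come out too small. Of the 15 autophagy genes 7 rose and 3 fell, of the 6 tested regulators 2 rose, and of the 15 lysosomal genes 8 rose and 1 fell. In 15 members every OOA library was above every OA library and in 3 every OOA library was below, against 26.3% and 26.4% of all tested genes.

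In cells with induced UCP1 the same question was put by Dox_OOA against Dox_OA, which shares no library with the comparison in water. Below, an oligomycin change "with doxycycline" is that of Dox_OOA against Dox_OA and one "in water" that of OOA against OA. Neither is an effect of doxycycline itself. Here 23 of the 36 members rose and none fell, against 16.2% of all tested genes that rose and 17% that fell. The 23 included 8 autophagy genes, 3 regulators and 12 lysosomal genes. The members' median log2 change was 0.17 and that of all genes 0.00. In 19 members every Dox_OOA library was above every Dox_OA library, against 15.8% of all tested genes, and in none was every one below, against 15.9%. At an unadjusted p under 0.05 in limma 0 members were lower, and limma-voom on the recovered reads called 0 lower.

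The 4 members with the smallest p among those that rose in OOA against OA were Sqstm1, Ctsl, Gabarapl1 and Gaa. Their promoter sequences are shown because on the log2(FPKM + 1) scale these genes also had the 4 largest rises among the members in water. The low gene Mitf exceeded Gaa at a pseudocount of 0.1, at 0.62, and by limma-voom, at 0.64. Each line gives the 250 bases before the gene's RefSeq start on mouse build GRCm38.p6, 5′ to 3′ on the gene's strand, with any of 4 searched motifs in capitals. The windows are chr11:50210821-50211070 (minus strand) for Sqstm1, chr13:64370521-64370770 (minus) for Ctsl, chr6:129532942-129533191 (plus) for Gabarapl1 and chr11:119267713-119267962 (plus) for Gaa.
Sqstm1: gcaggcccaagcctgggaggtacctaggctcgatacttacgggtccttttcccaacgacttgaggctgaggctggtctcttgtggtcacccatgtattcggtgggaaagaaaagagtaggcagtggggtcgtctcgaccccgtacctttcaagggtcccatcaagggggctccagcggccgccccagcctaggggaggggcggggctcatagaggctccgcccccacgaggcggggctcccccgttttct
Ctsl: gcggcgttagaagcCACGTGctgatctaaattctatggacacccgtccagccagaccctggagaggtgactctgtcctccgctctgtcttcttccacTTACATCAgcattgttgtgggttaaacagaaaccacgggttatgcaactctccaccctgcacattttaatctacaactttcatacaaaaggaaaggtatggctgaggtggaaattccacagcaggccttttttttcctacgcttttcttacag
Gabarapl1: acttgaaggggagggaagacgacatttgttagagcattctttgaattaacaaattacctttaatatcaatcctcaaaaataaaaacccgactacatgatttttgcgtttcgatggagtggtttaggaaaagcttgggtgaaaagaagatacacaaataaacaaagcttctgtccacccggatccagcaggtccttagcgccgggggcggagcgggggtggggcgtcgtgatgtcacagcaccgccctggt
Gaa: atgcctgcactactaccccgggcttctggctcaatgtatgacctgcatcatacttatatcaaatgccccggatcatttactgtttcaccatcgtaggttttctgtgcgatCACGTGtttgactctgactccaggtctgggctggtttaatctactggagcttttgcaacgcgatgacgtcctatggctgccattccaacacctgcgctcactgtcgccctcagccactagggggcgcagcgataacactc

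The motifs were searched on both strands over 300 bases, 250 before to 50 after the RefSeq start, and 32 of the 37 members had such a window. They were the core of the CLEAR element that TFEB binds, TCACGTGA, the E-box CACGTG that lies inside it, the C/EBP-ATF element TGATGNAA that ATF4 and its partners bind, and the antioxidant response element TGACNNNGC of NRF2. The Ctsl window held an E-box whose first base lay 236 bases before the start and a C/EBP-ATF element 153 bases before it, the Gaa window held an E-box 140 bases before the start, and none of the 4 motifs was in these windows of Sqstm1 and Gabarapl1. The CLEAR core was in the windows of 6 of the 32 members, 18.8%, and of 1.12% of 27025 genes. The E-box was in 13 members, 40.6%, among them the 6 with a CLEAR core, against 8.09% of genes. Since elements of this kind are known near many autophagy and lysosomal genes, these shares are no result on the treatments. The C/EBP-ATF element was in 2 members, 6.25%, against 4.51% of genes, and the antioxidant response element in 6, 18.8%, against 13.99%. A match describes letters in one window and is not a measured binding site.

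All 6 members with a CLEAR core encode lysosomal proteins. The 8 matches are shown with 10 bases on either side and the core in capitals, from chr8:3500463-3500490 (plus strand) for Mcoln1, chr2:164833750-164833777 and chr2:164833767-164833794 (plus) for Ctsa, chr7:142387909-142387936 (minus) for Ctsd, chrX:134601216-134601243 and chrX:134601183-134601210 (minus) for Gla, chr8:105566051-105566078 (minus) for Atp6v0d1 and chr16:44139374-44139401 (minus) for Atp6v1a, on GRCm38.p6.
Mcoln1: ggcgccccgcTCACGTGAccgcggcgca
Ctsa first site: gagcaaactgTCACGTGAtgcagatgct
Ctsa second site: atgcagatgcTCACGTGAccagagctac
Ctsd: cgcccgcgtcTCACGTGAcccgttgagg
Gla first site: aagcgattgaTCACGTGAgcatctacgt
Gla second site: gagatctcggTCACGTGAgcaactctcg
Atp6v0d1: cctactgcggTCACGTGAgacgcggtgc
Atp6v1a: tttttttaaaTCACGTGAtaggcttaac

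Sqstm1 encodes p62, the receptor that binds ubiquitin-marked cargo and ATG8 proteins and that also holds KEAP1, the repressor of NRF2. It had the largest change of any member (ENSMUSG00000015837, GRCm39 chr11:50090193-50101654, minus strand). Its level was 343, 342, 336 and 338 FPKM in OOA libraries, against 99.2, 105, 103 and 104 FPKM in OA libraries. With doxycycline it was 160.2, 154, 159 and 158 FPKM in Dox_OOA libraries, against 91.8, 92.0, 93.8 and 91.6 FPKM in Dox_OA libraries. All oligomycin libraries lay above all others, those without doxycycline highest of all, and the replicates of OOA differed little. The OOA mean was 3.31 times the OA mean, a log2 change of 1.72 ± 0.03 (SE; limma adjusted p = 7.35e-21). The Dox_OOA mean was 1.71 times the Dox_OA mean, a log2 change of 0.77 ± 0.03 (limma adjusted p = 1.26e-13).

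Among the other receptors, Nbr1, which like p62 binds ubiquitin and ATG8 proteins, had a small rise in both settings. Its mean was 22.9 ± 0.765 FPKM in OOA and 20.4 ± 0.324 FPKM in OA (SD, n = 4 each), a log2 change of 0.16 ± 0.04 (limma adjusted p = 0.000636). With doxycycline the Nbr1 log2 change was 0.16 ± 0.04 (limma adjusted p = 0.00122). Optn, a receptor known from the clearance of damaged mitochondria, passed the test in neither comparison. Its log2 changes were 0.09 in water and 0.13 with doxycycline.

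The ATG8 family, whose proteins are joined to the autophagosome membrane and bind the receptors, split in water into 3 genes that rose and 2 that fell. Gabarapl1 led the rise, at 39.5, 41.1, 39.1 and 36.04 FPKM in OOA libraries against 24.7, 25.1, 22.6 and 24.1 FPKM in OA libraries (ENSMUSG00000030161, GRCm39 chr6:129510123-129519309, plus strand). In the doxycycline libraries Gabarapl1 was 28.4, 25.0, 26.2 and 25.0 FPKM in Dox_OOA, against 21.1, 21.9, 20.8 and 20.5 FPKM in Dox_OA. No oligomycin library overlapped its comparison group in either setting. Its log2 change was 0.67 ± 0.05 in water (limma adjusted p = 4.02e-11) and 0.30 ± 0.05 with doxycycline (limma adjusted p = 4.15e-05).

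Gabarap, the founding member of that subfamily, went in opposite directions in the 2 settings. It had 113, 119, 103 and 108 FPKM in OOA libraries, against 137, 129.6, 121 and 112 FPKM in OA libraries, a log2 change of -0.17 ± 0.06 (limma adjusted p = 0.0271). With doxycycline it had 141, 145, 131 and 131 FPKM in Dox_OOA libraries, against 123, 125, 123 and 108 FPKM in Dox_OA libraries, a log2 change of 0.20 ± 0.06 (limma adjusted p = 0.0193). The groups overlapped through OA replicate 4 in water and did not overlap with doxycycline, and both calls were near the threshold. Leaving out OA replicate 1 or 2 or OOA replicate 3 or 4 ended the call in water at limma adjusted p of 0.0643 to 0.119, as did no filter on low genes (0.0631), and leaving out Dox_OA replicate 4 or Dox_OOA replicate 1 or 2 ended the one with doxycycline at 0.0502 to 0.0868.

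Gabarapl2 fell in water, at 12.2, 10.6, 11.5 and 13.7 FPKM in OOA libraries against 16.1, 14.8, 16.5 and 14.9 FPKM in OA libraries, every OOA library being the lower, with a log2 change of -0.36 ± 0.08 (limma adjusted p = 0.000587). With doxycycline its log2 change of -0.11 did not pass (limma adjusted p = 0.308). Map1lc3a and Map1lc3b encode LC3 proteins, the usual markers of autophagosomes. Their log2 changes were 0.23 ± 0.08 and 0.13 ± 0.05 in water (limma adjusted p = 0.0164 and 0.0405), and 0.22 ± 0.08 and 0.15 ± 0.05 with doxycycline (0.0363 and 0.0333). These 4 small rises depended on single libraries. In water Map1lc3a lost its call without OA replicate 3 or OOA replicate 1 (0.0513 and 0.0620), and Map1lc3b without OA replicate 1, 3 or 4 or OOA replicate 1 or 2 (0.0625 to 0.181), its change being 0.08 without OOA replicate 1. With doxycycline Map1lc3a lost it without Dox_OA replicate 3 or 4 or Dox_OOA replicate 1, 2 or 4 (0.0583 to 0.134), and Map1lc3b without any 1 of 6 libraries, all but Dox_OA replicate 4 and Dox_OOA replicate 3 (0.0547 to 0.112). With no filter on low genes Map1lc3b was lost in water (0.0848) and both genes were lost with doxycycline (0.0916 and 0.0750), a fit of the compared groups only lost Map1lc3b in both settings (0.0686 in water and 0.0667 with doxycycline), and limma-voom lost it in water (0.0878). Map1lc3b also overlaps Zcchc14 on the other strand, and since the sources do not say whether counting used strand, reads of the 2 genes cannot be told apart.

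Among the 7 further machinery genes, the 2 WIPI genes, whose proteins read a phosphoinositide on the growing membrane, moved in opposite directions in water. Wipi2, which recruits the conjugation machinery, was at 17.0, 15.9, 16.5 and 17.2 FPKM in OOA libraries, against 11.5, 12.5, 12.2 and 12.6 FPKM in OA libraries. Wipi1 was at 23.5, 23.3, 22.9 and 23.5 FPKM in OOA libraries, against 27.2, 27.1, 27.3 and 27.6 FPKM in OA libraries. Neither pair of groups overlapped. The log2 change was 0.42 ± 0.04 for Wipi2 (limma adjusted p = 8.64e-10) and -0.22 ± 0.04 for Wipi1 (limma adjusted p = 2.14e-05). With doxycycline Wipi2 was at 12.3, 12.5, 12.3 and 12.9 FPKM in Dox_OOA libraries, against 11.6, 11.5, 11.5 and 11.3 FPKM in Dox_OA libraries, a log2 change of 0.12 ± 0.04 (limma adjusted p = 0.0158). That call was lost without Dox_OOA replicate 4 (adjusted p = 0.0538) and in a fit of the compared groups only (0.0515). Wipi1 had a log2 change of -0.02 with doxycycline and did not pass (limma adjusted p = 0.731).

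Atg12, the ubiquitin-like protein that is joined to ATG5, rose in water, with 11.5, 11.4, 10.9 and 10.6 FPKM in OOA libraries against 8.84, 8.34, 8.38 and 8.91 FPKM in OA libraries and a log2 change of 0.33 ± 0.06 (limma adjusted p = 3.12e-05). With doxycycline its log2 change was 0.13 ± 0.06 and did not pass (limma adjusted p = 0.0932). Ulk1, the initiating kinase, passed only with doxycycline, at a log2 change of 0.16 ± 0.06 (limma adjusted p = 0.0463), against 0.12 ± 0.06 in water (limma adjusted p = 0.119), and the difference between the 2 did not pass (limma adjusted p = 0.728). The Ulk1 call was lost without any 1 of 6 of its 8 libraries, all but Dox_OA replicates 1 and 2 (adjusted p 0.0515 to 0.207), in the compared groups only (0.117) and with no filter (0.106), and its change was 0.10 without Dox_OA replicate 4. Becn1, Atg5 and Atg7, which encode the kinase complex subunit, the partner of ATG12 and the enzyme that activates both conjugation systems, passed in neither comparison. Their log2 changes were 0.13, -0.15 and -0.05 in water and 0.07, -0.15 and 0.12 with doxycycline.

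**Figure D2:**
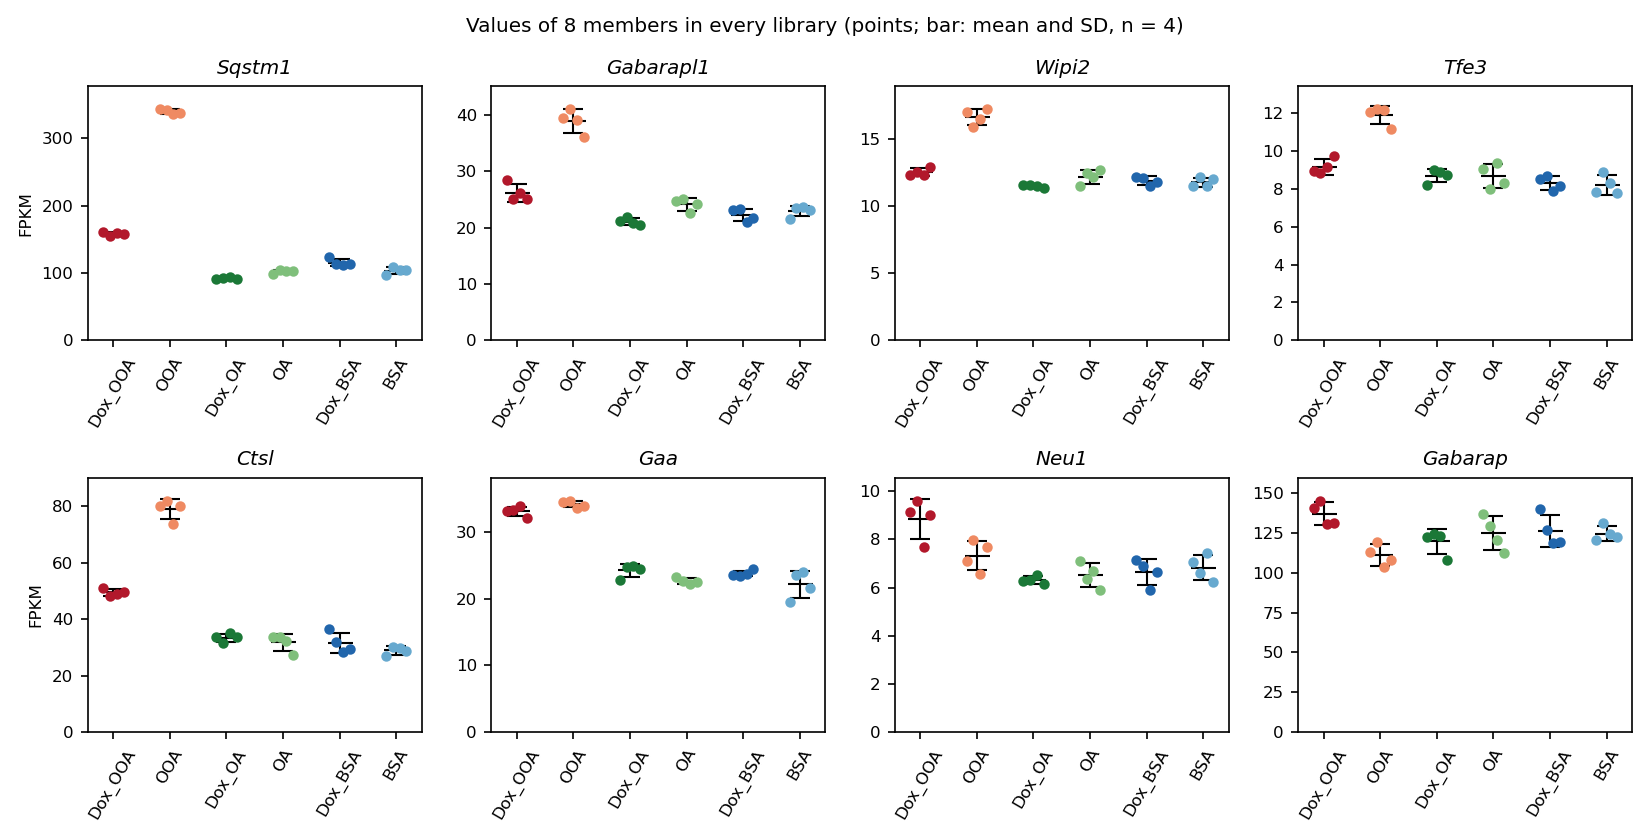
FPKM of 8 members in every library (points), with the group mean and SD (n = 4), in the order Dox_OOA, OOA, Dox_OA, OA, Dox_BSA and BSA; each panel has its own axis. Sqstm1, Gabarapl1, Wipi2, Tfe3 and Ctsl are highest in OOA, Gaa is similar in Dox_OOA and OOA, and Neu1 and Gabarap are highest in Dox_OOA.

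The 2 regulators that rose in water were Tfe3 and Mitf. Tfe3 had 12.1, 12.2, 12.1 and 11.2 FPKM in OOA libraries, against 9.03, 7.98, 9.37 and 8.29 FPKM in OA libraries, and no libraries overlapped. Its log2 change was 0.42 ± 0.05 in water (limma adjusted p = 3.13e-07) and 0.07 ± 0.05 with doxycycline (limma adjusted p = 0.348), where Dox_OOA averaged 9.16 ± 0.409 FPKM and Dox_OA 8.70 ± 0.361 FPKM (SD, n = 4 each). Mitf, the melanocyte and osteoclast factor of the same family, was low throughout, at 1.92, 1.86, 1.45 and 1.34 FPKM in OOA libraries against 0.940, 1.13, 1.04 and 0.983 FPKM in OA libraries, and at 1.61, 1.47, 1.60 and 1.504 FPKM in Dox_OOA libraries against 0.686, 1.30, 0.852 and 0.918 FPKM in Dox_OA libraries. Every oligomycin library was above every library of its comparison group. Its log2 change was 0.38 ± 0.10 in water (limma adjusted p = 0.00172) and 0.40 ± 0.10 with doxycycline (limma adjusted p = 0.00222). As a low gene Mitf moved most with the scale, to 0.62 in water and 0.70 with doxycycline at a pseudocount of 0.1, to 0.61 with doxycycline in values rescaled to a fixed sum, and to 0.64 and 0.75 by limma-voom on the recovered reads.

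Tfeb itself did not pass the oligomycin test in either setting, with log2 changes of -0.01 ± 0.09 in water (limma adjusted p = 0.904) and 0.17 ± 0.09 with doxycycline (limma adjusted p = 0.13). These are transcript levels and say nothing on where the protein is. Flcn and Fnip1 encode the folliculin complex, which acts on the Rag GTPases at the lysosome. They rose in Dox_OOA against Dox_OA, by log2 changes of 0.24 ± 0.08 (limma adjusted p = 0.0309) and 0.22 ± 0.06 (limma adjusted p = 0.0035). Their changes of 0.12 and 0.04 in water did not pass. Flcn lost its call without Dox_OA replicate 1 or 3 or Dox_OOA replicate 1 or 2 (adjusted p 0.0597 to 0.122) and with no filter on low genes (0.0765). Rragc, a Rag GTPase, did not pass in either (log2 changes -0.00 and 0.06).

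Among the 15 lysosomal genes the protease gene Ctsl, which encodes cathepsin L, changed most (ENSMUSG00000021477, GRCm39 chr13:64507151-64518704, minus strand). It had 80.1, 82.1, 73.9 and 80.3 FPKM in OOA libraries, against 33.8, 33.8, 32.4 and 27.4 FPKM in OA libraries. In the doxycycline libraries it had 51.2, 48.3, 48.9 and 49.6 FPKM in Dox_OOA, against 33.8, 31.4, 34.9 and 33.5 FPKM in Dox_OA. The oligomycin libraries were all above the rest and those without doxycycline were the highest. The OOA mean was 2.48 times that of OA, a log2 change of 1.29 ± 0.07 (limma adjusted p = 8.57e-14), and the Dox_OOA mean 1.48 times that of Dox_OA, 0.55 ± 0.07 (limma adjusted p = 7.87e-07).

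Gaa, the acid alpha-glucosidase that breaks down glycogen in lysosomes and is deficient in Pompe disease, rose to a similar level in both settings (ENSMUSG00000025579, GRCm39 chr11:119158713-119176280, plus strand). It had 34.6, 34.8, 33.7 and 34.0 FPKM in OOA libraries, against 23.3, 22.8, 22.2 and 22.5 FPKM in OA libraries, a log2 change of 0.57 ± 0.05 (limma adjusted p = 2.2e-10). With doxycycline it had 33.2, 33.3, 33.9 and 32.2 FPKM in Dox_OOA libraries, against 22.9, 24.8, 25.0 and 24.4 FPKM in Dox_OA libraries, a log2 change of 0.44 ± 0.05 (limma adjusted p = 1.17e-07). The libraries did not overlap in either setting. The difference between the 2 responses was -0.14 ± 0.06 and did not pass (limma adjusted p = 0.11).

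Of the remaining protease genes Ctsb, Ctsa and Ctsd rose by small amounts in both settings. Ctsb, the cysteine protease cathepsin B, had 142, 141, 128 and 137 FPKM in Dox_OOA libraries, against 115, 113, 112 and 108 FPKM in Dox_OA libraries, a log2 change of 0.29 ± 0.04 (limma adjusted p = 2.22e-06). In water the Ctsb change was 0.16 ± 0.04 (limma adjusted p = 0.000938). Ctsa, a serine carboxypeptidase that also shields NEU1 and beta-galactosidase, changed by 0.24 ± 0.04 with doxycycline (limma adjusted p = 2.87e-05) and by 0.10 ± 0.04 in water (limma adjusted p = 0.0318), and Ctsd, the aspartic protease cathepsin D, by 0.25 ± 0.05 (limma adjusted p = 0.000169) and 0.13 ± 0.05 (limma adjusted p = 0.0185). Every Dox_OOA library was above every Dox_OA library for all 3 of these genes. The calls of Ctsa and Ctsd in water were marginal. Ctsa lost its call without OA replicate 1 or 4 or OOA replicate 2 or 4 (adjusted p 0.0518 to 0.0897), with no filter (0.0589) and by limma-voom (0.193, with a change of 0.06), and Ctsd without OA replicate 4 or OOA replicate 1 or 2 (0.0543 to 0.0613) and by limma-voom (0.0536). Ctsz, a carboxypeptidase, passed in neither setting, with log2 changes of 0.13 with doxycycline and 0.13 in water. Ctsa, Ctsb and Ctsz overlap genes on the other strand (Pltp and Neurl2, Fdft1 and Nelfcd). Pltp rose by 0.48 and Neurl2 by 0.54 with doxycycline, and by 0.50 and 0.37 in water. Fdft1, which overlaps Ctsb, had log2 changes of 0.37 with doxycycline (limma adjusted p = 0.00101) and 0.10 in water, where it did not pass. Nelfcd, which overlaps Ctsz, had -0.20 with doxycycline and -0.59 in water, and passed in both. Reads from the shared stretches cannot be told apart.

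Of the glycosidases besides Gaa, Hexa, the alpha subunit of beta-hexosaminidase, rose in both settings, by 0.28 ± 0.05 in water (limma adjusted p = 7.63e-05) and 0.32 ± 0.05 with doxycycline (limma adjusted p = 4.08e-05). Neu1, the lysosomal sialidase, had 9.16, 9.61, 7.67 and 9.02 FPKM in Dox_OOA libraries, against 6.25, 6.33, 6.52 and 6.13 FPKM in Dox_OA libraries, without overlap and with a log2 change of 0.43 ± 0.07 (limma adjusted p = 4.5e-05). In water it had 7.09, 7.96, 6.58 and 7.69 FPKM in OOA libraries, against 7.08, 6.37, 6.70 and 5.90 FPKM in OA libraries, groups that overlapped, and 0.15 ± 0.07 did not pass (limma adjusted p = 0.0733). Gla, the alpha-galactosidase that is deficient in Fabry disease, did not pass in either (log2 changes -0.01 and -0.03).

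All 3 genes of the lysosomal membrane rose under oligomycin with doxycycline, and 2 of them in water. Lamp2, a major glycoprotein of the membrane that also serves chaperone-mediated autophagy, had 77.6, 80.0, 79.0 and 75.2 FPKM in Dox_OOA libraries, against 62.3, 62.4, 60.5 and 64.4 FPKM in Dox_OA libraries, a log2 change of 0.32 ± 0.04 (limma adjusted p = 2.44e-06), with no overlap. In water its change was 0.17 ± 0.04 (limma adjusted p = 0.00142). Mcoln1, the lysosomal calcium channel, rose by 0.26 ± 0.06 with doxycycline (limma adjusted p = 0.00285) and by 0.21 ± 0.06 in water (limma adjusted p = 0.00559). Lamp1 rose in Dox_OOA against Dox_OA by 0.16 ± 0.04 (limma adjusted p = 0.00168). In water -0.02 ± 0.04 did not pass (limma adjusted p = 0.721). The lowest Lamp1 group mean was that of Dox_OA, 221 FPKM, and the highest that of Dox_OOA, 247 FPKM. In Dox_OA against OA its log2 change was -0.14.

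The vacuolar ATPase acidifies the lysosome, and its 3 members did not move together. Atp6v0d1, a subunit of the membrane sector, had 34.6, 31.8, 33.5 and 30.6 FPKM in OOA libraries, against 35.9, 37.3, 36.4 and 37.9 FPKM in OA libraries, every OOA library being lower, a log2 change of -0.17 ± 0.06 (limma adjusted p = 0.0155). With doxycycline it had 38.1, 41.9, 39.96 and 39.9 FPKM in Dox_OOA libraries, against 36.5, 33.7, 32.3 and 40.7 FPKM in Dox_OA libraries, overlapping through Dox_OA replicate 4, a change of 0.16 ± 0.06 (limma adjusted p = 0.0387). The call in water was lost without OOA replicate 4 (0.0595), and the call with doxycycline without any 1 of 6 libraries, all but Dox_OA replicate 4 and Dox_OOA replicate 1 (0.0501 to 0.159), in the compared groups only (0.0984) and with no filter (0.0916). Atp6v1a, the catalytic subunit, rose in Dox_OOA against Dox_OA by 0.22 ± 0.04 (limma adjusted p = 0.000319). Its change of 0.06 ± 0.04 in water did not pass (limma adjusted p = 0.236). Atp6v1h, a regulatory subunit, passed in neither (log2 changes 0.05 with doxycycline and 0.03 in water). It overlaps Rgs20 on the other strand, which had log2 changes of -0.17 with doxycycline (not past the threshold) and -0.35 in water (limma adjusted p = 0.00544), and their reads cannot be told apart.

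Of the 6 members that hold a CLEAR core, whose sites are printed above, 3 rose and 1 fell in water, with a median log2 change of 0.08, and 5 rose with doxycycline, with a median of 0.23. Of the 25 tested members whose window lacks the core, 11 rose and 3 fell in water (median 0.13), and 16 rose with doxycycline (median 0.16). Of all tested genes 28.5% rose and 28.4% fell in water, and 16.2% rose and 17% fell with doxycycline. Some calls were not kept in every alternative. With the core these were Atp6v0d1, Ctsa and Ctsd in water and Atp6v0d1 with doxycycline, and without it Gabarap and Map1lc3b in both settings, among others. The 6 with the core are all lysosomal, while those without it mix lysosomal genes with autophagy genes and regulators. Of all 15 lysosomal members 8 rose and 1 fell in water (median 0.13), and 12 rose with doxycycline (median 0.25). No test of the difference was made, and whether the core or the gene class had a part was not tested.

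Whether induced UCP1 changed the response to oligomycin was asked by the difference between the 2 responses, doxycycline minus water, in one fit. It passed for 12 of the 36 members, 7 with a more positive response with doxycycline and 5 with a more negative one, against 15.1% and 14.6% of all tested genes (29.7% in either direction). The median difference was 0.05 over the members. The 5 negative ones were Sqstm1, Ctsl, Gabarapl1, Tfe3 and Wipi2, all of which had risen in water. For Sqstm1 the difference was -0.95 ± 0.05 on the log2 scale (limma adjusted p = 5.17e-12), for Ctsl -0.74 ± 0.09 (limma adjusted p = 1.75e-06) and for Gabarapl1 -0.37 ± 0.07 (limma adjusted p = 0.000189). For Tfe3 it was -0.35 ± 0.07 (limma adjusted p = 0.000693) and for Wipi2 -0.30 ± 0.05 (limma adjusted p = 6.65e-05). All 5 were called in every alternative tried.

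The 7 members with a more positive response with doxycycline were Gabarap (0.36 ± 0.09, limma adjusted p = 0.00304), Wipi1 (0.20 ± 0.05, limma adjusted p = 0.00488), Atp6v0d1 (0.33 ± 0.08, limma adjusted p = 0.0035), Lamp1 (0.18 ± 0.05, limma adjusted p = 0.012), Neu1 (0.28 ± 0.10, limma adjusted p = 0.0343), Atp6v1a (0.16 ± 0.06, limma adjusted p = 0.0483) and Ctsa (0.14 ± 0.05, limma adjusted p = 0.0448). By part, 2 autophagy genes were among the positive and 3 among the negative, no regulator was positive (1 at an unadjusted p under 0.05 in limma, and 1 by limma-voom) and 1 negative, and 5 lysosomal genes were positive and 1 negative. Neu1, Atp6v1a and Ctsa did not hold under all settings. Neu1 was lost without any 1 of 9 of the 16 libraries (adjusted p 0.0531 to 0.0828), Atp6v1a without any 1 of 12 (0.0552 to 0.0994) and Ctsa without any 1 of 12 (0.0507 to 0.109), and with no filter on low genes they had adjusted p of 0.0796, 0.0997 and 0.0874, which left 4 positive members of which 2 were lysosomal.

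**Figure D3:**
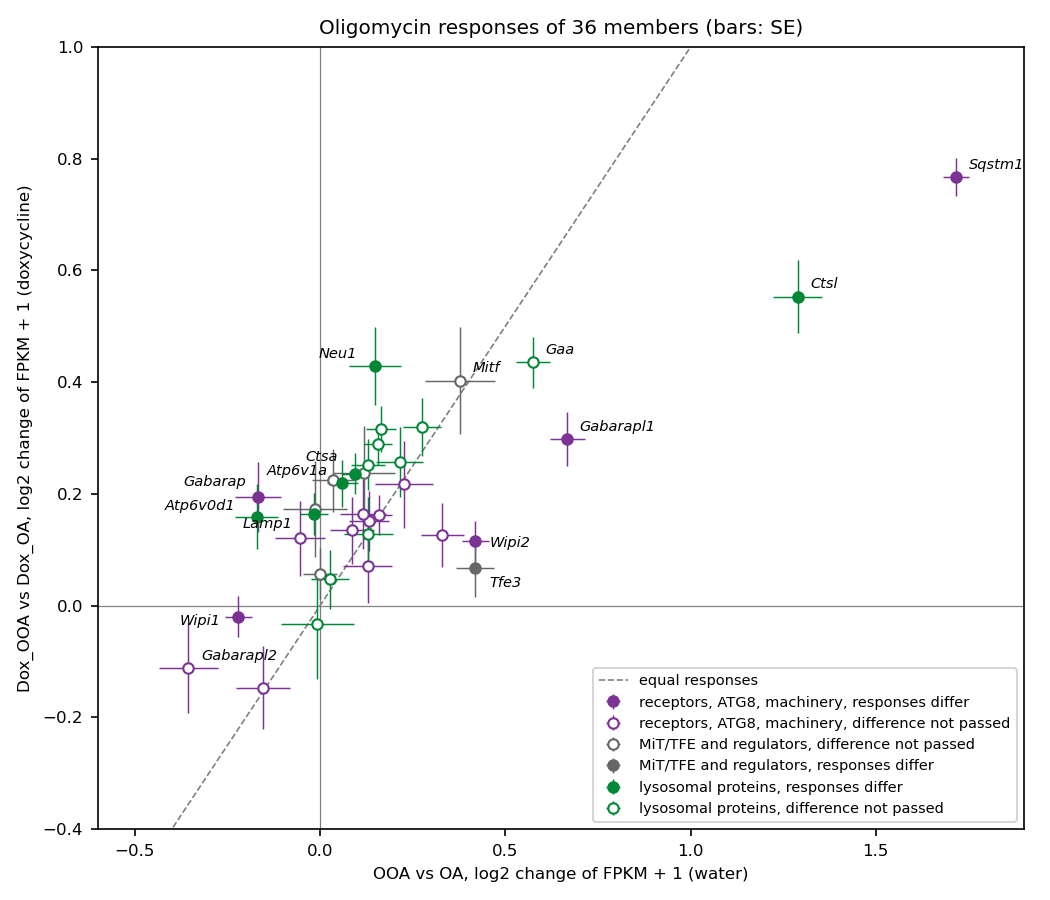
Oligomycin response of each tested member, as log2 change with SE, in water (x axis, OOA against OA) and with doxycycline (y axis, Dox_OOA against Dox_OA); filled points are the 12 members whose 2 responses differed, and the dashed line marks equal responses. Sqstm1, Ctsl and Gabarapl1 lie far below the line on the right, and most other points lie between 0 and 0.5 with doxycycline.

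The levels reached under oligomycin were compared directly by Dox_OOA against OOA, which uses the same libraries as the comparisons above. Of the 36 members 10 were higher and 7 lower in Dox_OOA, against 22% and 23.7% of all tested genes (45.7% in either direction), with a median log2 difference of 0.05. The libraries of 9 members did not overlap with Dox_OOA higher and those of 6 with Dox_OOA lower, against 19% and 21.3% of all tested genes. The 7 lower were Sqstm1 (-1.10 ± 0.03, limma adjusted p = 1.05e-16), Ctsl (-0.66 ± 0.07, 1.71e-08), Gabarapl1 (-0.56 ± 0.05, 1.82e-09), Wipi2 (-0.38 ± 0.04, 7.37e-09), Tfe3 (-0.34 ± 0.05, 7.79e-06), Atg12 (-0.25 ± 0.06, 0.00109) and Atp6v1h (-0.15 ± 0.05, 0.0231). The 10 higher were the lysosomal genes Atp6v0d1, Ctsa, Ctsb, Ctsd, Lamp2, Mcoln1 and Neu1 together with Gabarap, Wipi1 and Tfeb. Their differences ran from 0.14 for Lamp2 to 0.38 for Tfeb. Of the genes on the other strand, Pltp, which overlaps Ctsa, was higher by 0.29 (limma adjusted p = 2.99e-06). Neurl2, which also overlaps Ctsa, did not pass, at 0.28. Fdft1, which overlaps Ctsb, was higher by 0.20 (limma adjusted p = 0.0486). Reads from these shared stretches cannot be told apart.

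Tfeb had 2.89, 2.53, 3.04 and 2.82 FPKM in Dox_OOA libraries, against 2.11, 2.11, 2.07 and 1.49 FPKM in OOA libraries, with no overlap, and its log2 difference was 0.38 ± 0.09 (limma adjusted p = 0.000879). By limma-voom on the recovered reads it was 0.60. Among the other calls, 3 rested on single libraries or settings. Ctsd was lost without OOA replicate 4 (adjusted p = 0.0545) and Mcoln1 without OOA replicate 3 (0.0778). Atp6v1h was lost without Dox_OOA replicate 4 (0.0846) or OOA replicate 1 (0.107), in the compared groups only (0.0797), by limma-voom (0.0836) and after rescaling (0.0949). Rescaling all libraries to a fixed sum turned the split of the members to 15 higher and 6 lower, and limma-voom gave 16 and 6. Over all tested genes rescaling moved the log2 difference by a median of 0.04. Neither alternative uses the library size behind the FPKM values, which was smallest against the reads in OOA. The limma-voom split is thus no separate check of the rescaled one.

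Oleic acid changed few of these genes, and few of all tested genes (8.29% in OA against BSA). In OA against BSA, which shares the OA libraries with OOA against OA, 2 of the 36 members rose and none fell, against 4.67% and 3.62% of all tested genes, and the members' median log2 change was 0.00. At an unadjusted p under 0.05 in limma 1 member was lower, and limma-voom called 0 lower. The libraries did not overlap for 3 members that were higher in OA and none that was lower, against 7.97% and 6.57% of all tested genes. Among all genes 56.4% of the calls were higher in OA, and 38.5% after rescaling to a fixed sum. Ctsa had 48.0, 49.1, 50.3 and 47.8 FPKM in OA libraries, against 42.4, 44.5, 41.8 and 42.1 FPKM in BSA libraries, without overlap, and a log2 change of 0.19 ± 0.04 (limma adjusted p = 0.00139), beside 0.12 for Pltp and 0.43 for Neurl2, which did not pass. Gla had 6.34, 5.31, 5.998 and 7.45 FPKM in OA libraries, against 4.95, 5.18, 4.21 and 3.81 FPKM in BSA libraries, also without overlap, and a change of 0.39 ± 0.10 (limma adjusted p = 0.0121). The call of Gla was lost without BSA replicate 4 (adjusted p = 0.0598), without OA replicate 4 (0.0593) and in the compared groups only (0.0512).

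With doxycycline, Dox_OA against Dox_BSA, 2 members rose and 1 fell, against 3.39% and 3.32% of all tested genes (6.71% in either direction), with a median of -0.04. The libraries did not overlap for 1 member that was higher and 5 that were lower in Dox_OA, against 5.18% and 6.22% of all tested genes. Sqstm1 fell, with 91.8, 92.0, 93.8 and 91.6 FPKM in Dox_OA libraries against 123, 113, 112 and 113 FPKM in Dox_BSA libraries, every Dox_OA library being lower. Its log2 change was -0.32 ± 0.03 (limma adjusted p = 7.78e-07). Ctsa rose again, with 53.7, 51.0, 51.4 and 47.8 FPKM in Dox_OA libraries against 45.4, 44.7, 41.3 and 42.0 FPKM in Dox_BSA libraries, without overlap, by 0.23 ± 0.04 (limma adjusted p = 0.000172). Both genes that overlap it on the other strand were higher in Dox_OA too, Pltp by 0.28 and Neurl2 by 0.50, and their reads cannot be told apart from those of Ctsa. Wipi1 rose by 0.12 ± 0.04 (limma adjusted p = 0.0499), a call lost without any 1 of 6 of its 8 libraries, all but Dox_BSA replicate 1 and Dox_OA replicate 4 (0.0927 to 0.156), and under every other alternative except the replicate block (0.0514 to 0.275). The response to oleic acid differed between doxycycline and water for Sqstm1 alone among the members, by -0.31 ± 0.05 (limma adjusted p = 0.000853), against 0.093% of all tested genes with a more positive and 0.542% with a more negative response.

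Doxycycline without oligomycin also moved few members, at shares near those of all tested genes (2.18% in Dox_BSA against BSA and 11.3% in Dox_OA against OA). In Dox_BSA against BSA 1 member of 36 rose and none fell, against 1.11% and 1.07% of all tested genes (2.18% in either direction), and 0 were lower at an unadjusted p under 0.05 in limma or by limma-voom. The libraries did not overlap for 3 members that were higher and 1 that was lower in Dox_BSA, against 3.46% and 3.81% of all tested genes. The call was that of Sqstm1, with 123, 113, 112 and 113 FPKM in Dox_BSA libraries against 96.4, 109, 104 and 105 FPKM in BSA libraries, every Dox_BSA library being higher, and a log2 change of 0.16 ± 0.03 (limma adjusted p = 0.0148). The call was lost without BSA replicate 1 (adjusted p = 0.0604) and in a fit of the 2 groups only (0.268). In Dox_OA against OA 4 members fell and none rose, against 7.01% and 4.29% of all tested genes, with a median of -0.04. At an unadjusted p under 0.05 in limma 4 members were higher, and limma-voom called 1 higher. The libraries of 1 member did not overlap with Dox_OA higher and those of 5 with Dox_OA lower, against 7.33% and 10.9% of all tested genes.

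The 4 that fell in Dox_OA against OA were Sqstm1 (-0.15 ± 0.03, limma adjusted p = 0.00567), Gabarapl1 (-0.19 ± 0.05, 0.0139), Lamp1 (-0.14 ± 0.04, 0.0185) and Atp6v1h (-0.17 ± 0.05, 0.0381), which overlaps Rgs20 (-0.11, which did not pass). Of these, the call of Sqstm1 was kept in every alternative. Gabarapl1 was lost without OA replicate 2 (0.0517) and by limma-voom (0.0612), and Lamp1 without Dox_OA replicate 3 or 4 or OA replicate 1 or 2 (0.0527 to 0.0700). Atp6v1h was lost without Dox_OA replicate 1, 2 or 3 or OA replicate 1 or 2 (0.0778 to 0.126), in the compared groups only (0.0929), with no filter (0.0786) and after rescaling (0.0899). The share of all calls that were higher was 37.9% and became 55.6% after rescaling, where 1 member rose and 3 fell.

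A further 140 genes of the same pathways, listed by function, are given beside the members, and 130 of them were tested. These lists too were chosen with earlier results of these data known, so they are no independent check of the members. In OOA against OA 54 rose and 23 fell, and in Dox_OOA against Dox_OA 52 rose and 9 fell, with median log2 changes of 0.09 and 0.14. The shares of all tested genes to set beside these counts and those of each list are 28.5% risen and 28.4% fallen in water, and 16.2% and 17% with doxycycline. The genes named from these lists are at most the 3 with the smallest p in a list and comparison. Of 12 further receptors 3 rose and 3 fell in water and 4 rose and 2 fell with doxycycline. Stbd1, which tethers glycogen to autophagic membranes, averaged 96.1 FPKM in OOA and 13.3 FPKM in OA, a log2 change of 2.77 ± 0.09 (limma adjusted p = 2.37e-17), and 41.5 FPKM in Dox_OOA and 12.3 FPKM in Dox_OA, a change of 1.68 ± 0.09 (limma adjusted p = 2.7e-12). The 2 responses differed by -1.09 ± 0.13 (limma adjusted p = 5.92e-07). Calcoco1, a receptor for the endoplasmic reticulum, rose by 0.57 and 0.47. Bnip3, a hypoxia-induced receptor for mitochondria, averaged 31.8 FPKM in OOA and 59.7 FPKM in OA, a change of -0.90 ± 0.10 (limma adjusted p = 1e-07), and rose with oleic acid by 0.59 ± 0.10 in water (limma adjusted p = 0.000418) and 0.86 ± 0.10 with doxycycline (limma adjusted p = 3.78e-06).

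Of 28 further machinery genes 15 rose and 3 fell in water and 8 rose and 2 fell with doxycycline. Epg5, which tethers autophagosomes to lysosomes, averaged 19.1 FPKM in OOA and 7.57 FPKM in OA, a log2 change of 1.23 ± 0.05 (limma adjusted p = 1.22e-15), against 0.47 ± 0.05 with doxycycline (limma adjusted p = 1.36e-07). Of 20 further nutrient-sensing genes 7 rose and 3 fell in water and 3 rose and 3 fell with doxycycline. Nprl3, a subunit of a complex that restrains the Rag GTPases, rose by 0.42 in water, and Lamtor1, which anchors the Rag GTPases at the lysosome, changed by -0.47. Among 15 further subunits and accessory proteins of the vacuolar ATPase 6 rose and 3 fell in water and 7 rose and 1 fell with doxycycline. Atp6ap2, an accessory protein, rose by 0.72 ± 0.04 in water (limma adjusted p = 3.27e-12) and 0.41 ± 0.04 with doxycycline (limma adjusted p = 2.72e-07).

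Of 31 further lysosomal hydrolases and their activators 21 rose and 1 fell with doxycycline (16.2% and 17% of all tested genes), and 11 rose and 8 fell in water (28.5% and 28.4%). Their median log2 change was 0.22 with doxycycline and 0.07 in water. In the levels under oligomycin, Dox_OOA against OOA, 21 were higher and 3 lower with a median of 0.27, against 22% and 23.7% of all tested genes. The difference between the responses passed for 13 in the positive and 2 in the negative direction, against 15.1% and 14.6%. Gm2a, the activator of ganglioside breakdown, averaged 19.1 FPKM in Dox_OOA and 10.7 FPKM in OOA, a difference of 0.79 ± 0.05 (limma adjusted p = 1.14e-11). Scpep1, a serine carboxypeptidase, went the other way, with 103 FPKM in Dox_OOA and 229.9 FPKM in OOA, a difference of -1.15 ± 0.05 (limma adjusted p = 7.56e-15), after a rise of 1.72 ± 0.05 in water (limma adjusted p = 1.26e-18). Tpp1, a tripeptidyl peptidase, rose in Dox_OOA against Dox_OA by 0.36 ± 0.04 (limma adjusted p = 7.63e-08). Gusb, the beta-glucuronidase, was 11.4 FPKM in OOA and 17.4 FPKM in OA, a change of -0.57 ± 0.04 (limma adjusted p = 8.35e-11). Of 24 further membrane and sorting genes 12 rose and 3 fell in water and 9 rose and none fell with doxycycline (0 lower at an unadjusted p under 0.05 in limma or by limma-voom), led in water by Npc1, the cholesterol exporter, at 1.25 ± 0.06 (limma adjusted p = 6.07e-14).

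**Figure D4:**
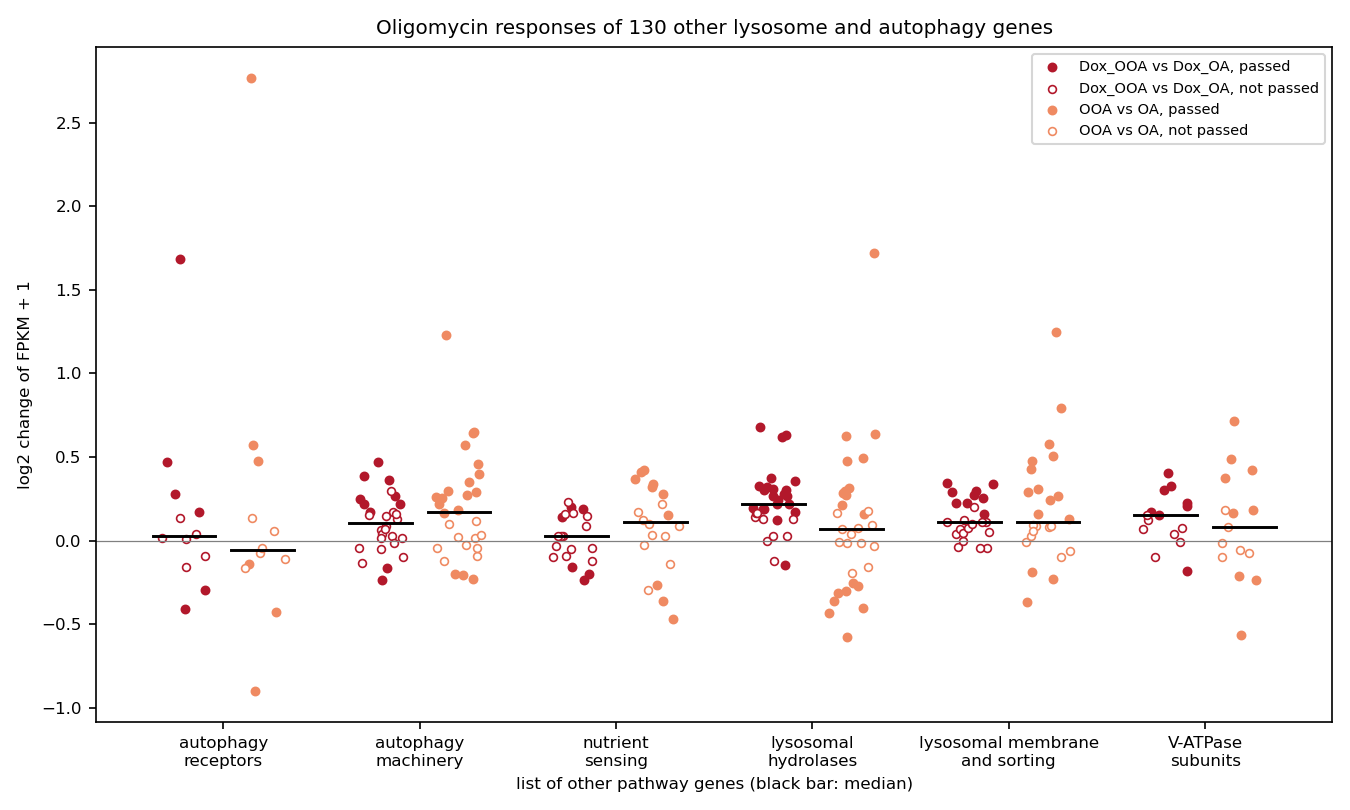
Oligomycin response (log2 change) of 130 other genes in 6 lists, with doxycycline (left of each pair, Dox_OOA against Dox_OA) and in water (right, OOA against OA); points are genes and black bars are list medians. The hydrolase median is 0.22 with doxycycline and 0.07 in water, and Stbd1 is the highest point in both at 1.68 and 2.77.

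In the comparisons without oligomycin, of the 130 genes 3 rose and 6 fell in OA against BSA, where 8.29% of all genes changed, and 3 rose and 7 fell in Dox_OA against Dox_BSA, where 6.71% changed. In Dox_BSA against BSA 2 rose and 2 fell, where 2.18% of all genes changed. In Dox_OA against OA 5 rose and 4 fell, where 11.3% changed, and this split became 11 and 2 after rescaling to a fixed sum and 9 and 2 by limma-voom. None passed the difference between the 2 oleic acid responses in limma, where 3 did in the positive and 7 in the negative direction at an unadjusted p under 0.05, and limma-voom called 0.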

How the data were processed

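The table deposited by the authors gives FPKM per gene and library, per the file headers, with gene identifiers and coordinates on GRCm39. The submitters' processing notes name the builds GRCm39 and mm39 and, with no version or role, STAR, HISAT2, STAR-Fusion, HTSeq, edgeR and DESeq2; which of them made this table, and with which strand setting, is not recorded there. FPKM were transformed to log2(FPKM + 1), and all 6 groups were fitted together in limma 3.58.1 (R 4.3.3) with lmFit and eBayes (trend and robust), on the 12904 genes with 1 FPKM or more in at least 4 libraries, with 18 residual degrees of freedom. From that fit came 7 differences between groups and 2 interactions, with Benjamini-Hochberg adjustment over all genes within each and a threshold of 0.05. The deposited FPKM of each library are whole multiples of 1 read per gene length (100.0% of values within 0.01 of a whole read), which gave the reads used as depth and, as an alternative, in limma-voom. Count tests on estimated reads were not the main result, and the standard errors rest on the spread pooled over the 24 libraries.

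The members and all lists were chosen with earlier results of these data known. Every member could be named, and of the other pathway genes up to 3 per list and comparison with the smallest p. Alternatives were a pseudocount of 0.1, no filter on low genes (29551 genes), rescaling to a fixed sum, the compared groups only, limma-voom, the replicate number as a block and leaving out each library. Promoter windows come from RefSeq on GRCm38.p6, matched by symbol, and coordinates of the 2 builds were not converted. Figures were drawn with Python 3.11.15 and matplotlib 3.10.9.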

Additional observations from a re-analysis of the deposited data

Results flagged for a closer look

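A library was set apart where its gap to the nearest of the other 3 took up more of the range of its group of 4 than Dixon's 95% critical value allows. This held for 10 of 222 groups of members, 4.50%, where chance gives about 5%. The outlying values, in FPKM, were 123 for Sqstm1 in Dox_BSA replicate 1, 18.3 for Map1lc3b in BSA replicate 4 and in OA replicate 2, 108 for Gabarap in Dox_OA replicate 4, 18.03 for Atg5 in OOA replicate 1, 27.0 for Wipi1 in Dox_OOA replicate 4, 1.49 for Tfeb and 11.2 for Tfe3 in OOA replicate 4, 7.39 for Flcn in Dox_BSA replicate 1 and 32.7 for Rragc in OOA replicate 2. The call of Gabarap in Dox_OOA against Dox_OA was lost without the outlying Dox_OA library, as given beside that result.

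The response to oligomycin differed between doxycycline and water for 12 of the 36 tested members, near the 29.7% of all tested genes. The differences are on the log2 scale, doxycycline minus water. The calls of Neu1, Atp6v1a and Ctsa were lost without any 1 of 9, 12 and 12 of the 16 libraries. The differences were -0.95 for Sqstm1, -0.74 for Ctsl, -0.37 for Gabarapl1, -0.35 for Tfe3 and -0.30 for Wipi2, and 0.36 for Gabarap, 0.33 for Atp6v0d1, 0.28 for Neu1, 0.20 for Wipi1, 0.18 for Lamp1, 0.16 for Atp6v1a and 0.14 for Ctsa. The response to oleic acid differed for Sqstm1, by -0.31, against 0.635% of all tested genes. What set the responses apart was not tested.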

How the results depend on the processing

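No member changed direction under any alternative while called. Of the called members, 15 of 21 kept their call in every alternative in OOA against OA, 16 of 23 in Dox_OOA against Dox_OA, 14 of 17 in Dox_OOA against OOA and 9 of 12 in the difference between the oligomycin responses. Some members that did not pass were called in some alternative. In OOA against OA these were Atg5, Ctsz, Neu1 and Ulk1, and in Dox_OOA against Dox_OA Atg12 and Optn. In Dox_OOA against OOA they were Atg7, Atp6v1a, Ctsz, Hexa, Lamp1 and Map1lc3a. In the difference between the oligomycin responses they were Atg12, Ctsb, Fnip1, Gaa, Gabarapl2 and Lamp2. The number of called members moved by over 1.5 times only in the small comparisons. It was 1 in OA against BSA (2 as reported) and 0 in Dox_BSA against BSA (1 as reported) in fits of the compared groups only. Leaving out single libraries gave 1 to 2 in OA against BSA, 0 to 1 in Dox_BSA against BSA and 1 to 4 in Dox_OA against OA (4 as reported). For the other pathway genes it was 4 in Dox_OA against Dox_BSA in the compared groups only (10 as reported). In Dox_BSA against BSA it was 1 with no filter, 0 in the compared groups only and 1 to 4 without single libraries (4 as reported). In Dox_OA against OA it was 4 with no filter and 4 to 8 without single libraries (9 as reported). In the difference between the oleic acid responses it was 1 with the replicate block and 0 to 1 without single libraries (0 as reported). The cause of these moves was not tested. The replicate numbers were not taken to pair the libraries. Over 60 pairs with the same number in different groups the correlation of their deviations ran from -0.04 to 0.17 with a median of 0.03, and 9 pairs were over 0.1. With the replicate block 22 members were called in OOA against OA, 23 in Dox_OOA against Dox_OA, 18 in Dox_OOA against OOA, 4 in Dox_OA against Dox_BSA, 5 in Dox_OA against OA (1 higher and 4 lower) and 14 in the difference between the oligomycin responses. Members with few reads, Rragd and Mitf above all, are measured least precisely, and changes of such genes are understated on this scale.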
